A study of Mus musculus with 2 samples.

Results

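Glycolysis and the transcriptional response to low oxygen were followed through 36 genes in endothelial cells sorted from mouse tumors. The genes were taken by symbol from the feature list shared by both libraries, which holds 31055 features. They fall into 16 glycolysis enzymes, 3 regulators of glycolytic flux, 4 genes of the hypoxia-inducible factors (HIF) and their prolyl hydroxylases, and 13 other hypoxia response genes.

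Blood endothelial cells (BECs) came from orthotopic tumors of wild-type C57BL6 female mice that had received 100000 cancer cells at 6 weeks of age, and tumors were digested 10 days after implantation. The PyMT line was derived from mammary tumors of MMTV-PyMT mice, which carry the polyoma middle T antigen under a mammary tumor virus promoter, and the KPC line is a pancreatic cancer line, so each tumor model is a single implanted line. Before sorting, cells bearing CD45, EpCAM, Ter119, podoplanin or Annexin V were depleted, and the KPC tumors were digested with more collagenase D than the PyMT tumors. Each model gave 1 droplet-based library with unique molecular identifiers (UMIs), the number of mice in it is not given in the sources used here, and tumor model and library therefore cannot be told apart.

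The PyMT library held 55547926 UMIs in 12464 barcodes and the KPC library 44441942 in 10236. Cells were placed in classes by summed UMIs of marker pairs. Tip cells, the sprouting front of a growing vessel, had at least 3 UMIs of Apln and Angpt2, and capillary cells had at least 2 UMIs of Car4 and Cd300lg. Tumor, fibroblast, lymphatic, pericyte, venule and artery gates were applied ahead of these, and cells that passed none were called other. The PyMT library gave 1991 tip and 2597 capillary cells among 11744 kept cells, and the KPC library gave 1302 and 1297 among 9591. The gates picked cells of unequal depth, with medians of 5845 and 4254 UMIs per cell for PyMT tip and capillary cells and 5449.5 and 1879 for KPC. Values are CPM, the UMIs of a gene scaled to a common total of UMIs in its class, ratios are log2 ratios of CPM, and all ranges in parentheses are exact intervals at 95% that cover counting error only. With 1 library per model there were no replicates to test against, and the text gives values without p-values.

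Markers that no gate used followed most of the class names, but set PyMT capillary cells only weakly apart from further classes. The 8 tip markers summed to 1564 CPM in tip and 932 in capillary cells of PyMT and to 2074 and 1008 in KPC, and each of the 8 was higher in tip cells in both libraries, although Dll4 in KPC, at a log2 ratio of 0.04 (-0.12 to 0.20), was within counting error. Esm1, a secreted proteoglycan of tip cells, stood at 399 against 83.4 CPM in PyMT and 894 against 372 in KPC. The 9 capillary markers summed to 4357 in tip and 6236 in capillary cells of PyMT and to 7347 and 16666 in KPC, but Gpihbp1, at a log2 ratio of 0.12 (0.08 to 0.15), and Rgcc, at 0.23 (0.18 to 0.27), were higher in PyMT tip cells. The 5 pan-endothelial markers ranged from 2785 to 4709 CPM over these 4 groups. Of the 5 epithelial markers, the sum was at most 0.999 CPM in PyMT tip and capillary cells, with Krt19 at 0, and 20.2 and 23.2 in KPC, with Cldn4 at 0 in capillary cells. The 5 immune markers summed to 4.23 to 66.8 CPM and both red blood cell genes to 1.297 to 32.2 CPM over the 4 groups. The 5 lymphatic markers summed to 168 CPM in tip and 130 in capillary cells of PyMT and to 173 and 138 in KPC. In lymphatic cells they summed to 13023 and 16214 CPM. Beyond counting error, 3 of the 5 were higher in tip cells in PyMT and 2 in KPC, where 1 was lower. Lyve1 had the highest log2 ratios of the list, 1.25 in PyMT and 2.43 in KPC. In further classes of PyMT the capillary markers summed to 12445 CPM in cells of the pericyte gate, above capillary cells. They summed to 5851 in venule, 5596 in artery and 5109 in other cells. The tip markers summed to 1346 CPM in other cells of PyMT, between tip and capillary cells. In KPC they summed to 1178 in artery cells, above capillary cells. For 2 further gates the markers did not follow the name throughout. The 5 epithelial markers summed to 4493 CPM in cells of the tumor gate (Krt8 and Krt18) in KPC but to 42.1 in PyMT, so that gate is not supported as tumor cells in PyMT. In cells of the pericyte gate (Notch3 and Higd1b) the pericyte markers summed to 2773 CPM in PyMT and 5159 in KPC, beside 2849 and 2237 CPM of the pan-endothelial markers, a level close to that of endothelial cells. The gates overlapped, as 797 PyMT tip cells (40.0%) and 184 KPC tip cells (14.1%) also passed the capillary gate. The libraries had 170 barcodes in common, of which 151 were kept in both and 19 were tip or capillary cells in both.

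Glycolysis splits glucose into pyruvate and yields ATP without oxygen, and lactate dehydrogenase then turns pyruvate into lactate. Sprouting endothelial cells are known to draw most of their ATP from it, and the kinase and phosphatase PFKFB3 is a known driver of that flux in tip cells. When oxygen is present, prolyl hydroxylases (PHDs, encoded by Egln genes) mark HIF-1α (Hif1a) and HIF-2α (Epas1) for degradation, and in hypoxia the stabilised factors bind the core letters ACGTG or GCGTG beside many glycolysis genes. HIF-α is controlled mainly at the protein level, so its mRNA does not report its activity. Both tip gate genes, Apln and Angpt2, are themselves known to respond to hypoxia, so the tip gate and the members are not independent in what they can follow.

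Promoter sequences show which members carry these letters next to their start. RefSeq windows on GRCm38.p6, from 250 bases before to 50 after each start, were matched by symbol for 33 of the 36 genes. ACGTG on either strand lay in a window of 24 of the 33 (72.7%), against 21.8% of 27025 genes with a window, and GCGTG in 23 (69.7%), against 35.2% of those genes. Some genes have several windows. Counted by window, 54.9% of the 51 member windows held ACGTG, against 19.6% of 32851. For GCGTG these shares were 56.9% and 32.4%. The members were chosen as glycolysis and hypoxia response genes, so the shares are a description and no test. A palindrome CACGTG counts on both strands. A match is a description of letters and not of binding. The stretches upstream of the first listed RefSeq start of 4 genes are printed 5′ to 3′ on the gene's strand, with ACGTG or its reverse complement in capitals. Those of Ankrd37 and Ldha lie inside the annotated span of their gene, so these starts are not the outermost annotated ones. A further window of Ldha is not printed. Ankrd37 and Egln3 are shown because they had the widest KPC ratios between tip and capillary cells, and Pgk1 and Ldha because they are enzymes of 1 pathway with different ratios. Ankrd37 (chr8:45999868-46000100, minus strand, without the 17 bases next to the start, which lie in an annotated exon) holds 1 match 241 bases upstream. A further match, 6 bases upstream, lies in the bases left out. Egln3 (chr12:54203875-54204124, minus strand) holds 1 match 229 bases upstream. Pgk1 (chrX:106186850-106187099, plus strand) holds matches 150 and 131 bases upstream, on opposite strands. Ldha (chr7:46845554-46845803, plus strand) holds palindromes with matches 145 and 144 and again 48 and 47 bases upstream, and a further match 34 bases upstream.
Ankrd37: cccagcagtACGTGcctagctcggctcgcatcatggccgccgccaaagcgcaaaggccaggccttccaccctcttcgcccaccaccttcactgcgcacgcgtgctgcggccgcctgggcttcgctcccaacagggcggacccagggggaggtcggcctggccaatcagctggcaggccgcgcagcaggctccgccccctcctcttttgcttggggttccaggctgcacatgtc
Egln3: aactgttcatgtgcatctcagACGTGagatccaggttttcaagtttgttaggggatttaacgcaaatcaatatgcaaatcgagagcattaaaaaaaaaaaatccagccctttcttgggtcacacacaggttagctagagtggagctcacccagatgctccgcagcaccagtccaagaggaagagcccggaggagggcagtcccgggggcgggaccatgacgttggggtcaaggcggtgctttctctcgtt
Pgk1: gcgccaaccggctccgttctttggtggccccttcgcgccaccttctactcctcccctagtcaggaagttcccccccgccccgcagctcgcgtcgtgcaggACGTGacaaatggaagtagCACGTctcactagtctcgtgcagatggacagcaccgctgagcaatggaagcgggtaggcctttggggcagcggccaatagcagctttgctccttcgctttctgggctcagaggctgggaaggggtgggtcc
Ldha: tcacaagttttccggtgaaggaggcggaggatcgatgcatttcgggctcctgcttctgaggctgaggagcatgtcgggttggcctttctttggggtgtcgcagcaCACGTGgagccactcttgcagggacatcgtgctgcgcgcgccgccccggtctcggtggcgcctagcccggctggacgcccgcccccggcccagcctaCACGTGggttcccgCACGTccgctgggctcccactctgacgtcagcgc

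Tip cells had more glycolysis enzyme transcripts than capillary cells in both tumor models, and the gap was wider in KPC. The 16 enzymes summed to 6748 CPM in tip and 5657 in capillary cells of PyMT, a log2 ratio of 0.25 (0.24 to 0.27). In KPC they summed to 6309 and 3890 CPM, a log2 ratio of 0.70 (0.67 to 0.72). As a share of all UMIs, glycolysis enzymes took 0.675% of PyMT tip, 0.566% of PyMT capillary, 0.631% of KPC tip and 0.389% of KPC capillary cells. The tip levels of both tumor models were thus close to each other, and the KPC capillary level was the lowest of the 4. Of the 14 enzymes with at least 20 UMIs over both classes, 13 were higher in tip cells in each library, with median log2 ratios of 0.25 and 0.50. Over all genes tested in the same way, 48.8% were higher in tip cells in PyMT and 43.9% in KPC, with medians of -0.0059 and -0.075.

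Large ratios were few. In PyMT 0 of the 33 members tested were at least 2-fold higher in tip cells, where 0.947% of all genes were, and 1 was at least 2-fold lower, where 1.78% of all genes were. In KPC 4 members were at least 2-fold higher, Tpi1, Egln3, Ankrd37 and Mif, beside 3.73% of all genes, and 2 were at least 2-fold lower, Epas1 and Ndufa4l2, beside 7.5%. At 1.5-fold, 3 members were higher and 2 lower in PyMT (3.47% and 5.61% of all genes), and 9 were higher and 4 lower in KPC (9.88% and 17.7%). Hk2, Aldoc and Pfkfb4 had under 20 UMIs in either library and were not tested.

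**Figure D1:**
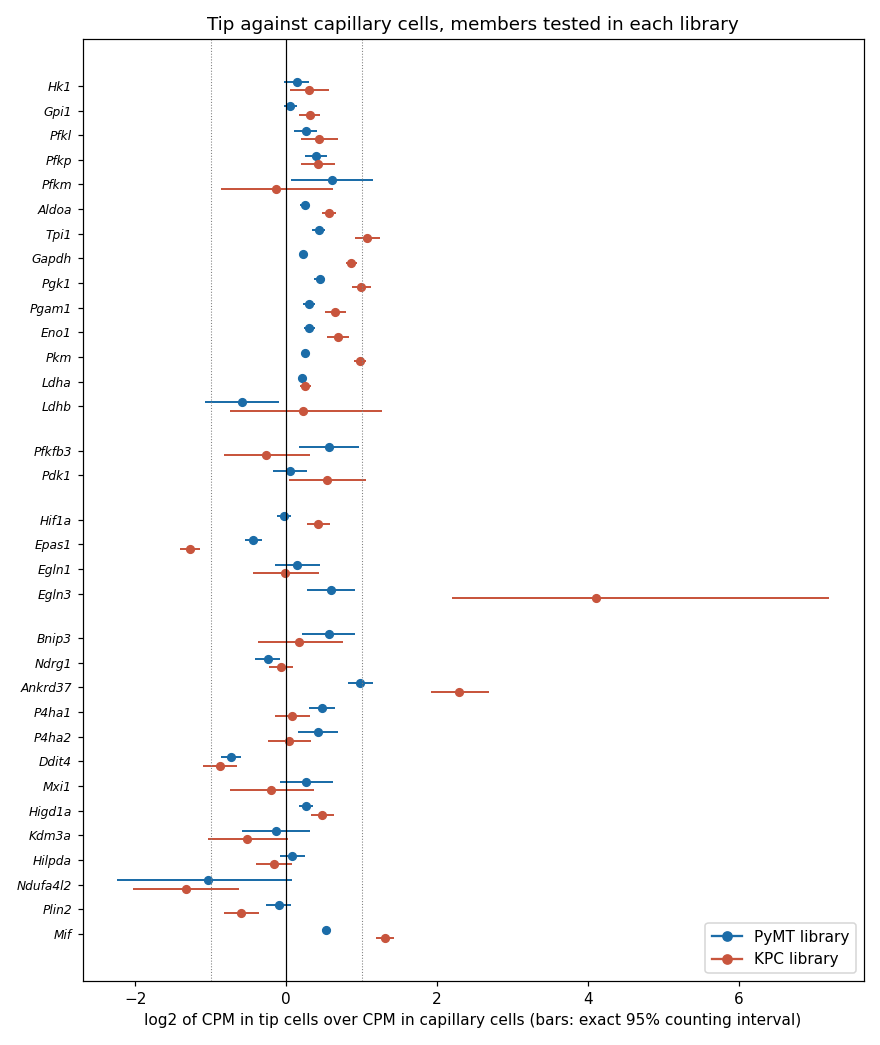
Log2 ratio of CPM, tip over capillary cells, for the members with at least 20 UMIs over both classes, grouped by role, with points for PyMT and KPC and bars for the exact 95% counting interval. Most glycolysis enzymes lie right of 0 in both libraries, Ankrd37 and Mif lie right of 0 in both, and Epas1, Ddit4 and Ndufa4l2 lie left of 0 in both.

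Within the pathway the enzymes did not differ between classes to the same degree. Gapdh, which oxidises glyceraldehyde 3-phosphate and had the most UMIs of the enzymes (chr6:125161715-125166467), stood at 1755 CPM in tip and 1507 in capillary cells of PyMT, a log2 ratio of 0.22 (0.19 to 0.25). In KPC it stood at 1685 and 924 CPM, a log2 ratio of 0.87 (0.81 to 0.92). Tpi1, which interconverts the triose phosphates (chr6:124810586-124814296), was the enzyme with the highest KPC ratio, at 242 against 115 CPM (1.08, 0.92 to 1.23), and stood at 308 against 229 CPM in PyMT (0.43). The Tpi1 gap between classes was more than 2-fold in 1 library and well below it in the other. Gapdh is named by the rule for members with the most UMIs in their role group, and Tpi1 and the further enzymes named here were chosen after their values were seen.

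Phosphoglycerate kinase 1 (Pgk1, chrX:106187100-106203699), the first ATP-making step, stood at 436 against 320 CPM in PyMT (log2 ratio 0.45, 0.39 to 0.50) and 422 against 211 in KPC (0.9996, 0.89 to 1.11). Pyruvate kinase (Pkm), the last, stood at 1411 against 1187 CPM in PyMT (0.25) and 1331 against 673 in KPC (0.98). In KPC both lay just under the 2-fold line. Pgam1 and Eno1, the enzymes between them, had log2 ratios of 0.31 and 0.31 in PyMT and 0.65 and 0.69 in KPC. The enzymes from Tpi1 to Pkm, which work on triose phosphates and their products, thus held the 6 KPC ratios above 1.5-fold.

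The hexose steps upstream differed less. Hk1, which traps glucose in the cell, had log2 ratios of 0.14 in PyMT and 0.31 in KPC, Gpi1 of 0.06 and 0.31, and Pfkl of 0.26 and 0.44. Pfkp, the platelet isoform of phosphofructokinase, was at 86.8 against 65.8 CPM in PyMT (0.40) and 89.6 against 67.1 in KPC (0.42), ratios of about the same width. Pfkm had few UMIs, 81 and 52 in PyMT (0.61, 0.085 to 1.14) and 54 and 25 in KPC (-0.13, -0.84 to 0.61), and its sign differed between libraries. Aldoa, which cleaves fructose 1,6-bisphosphate, had log2 ratios of 0.25 and 0.57.

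Lactate dehydrogenase A (Ldha), which regenerates NAD+ by making lactate, stood at 1064 against 917 CPM in PyMT (log2 ratio 0.21, 0.18 to 0.25) and 1000.4 against 840 in KPC (0.25, 0.19 to 0.31). Its KPC ratio was thus far below those of Gapdh, Pgk1 and Pkm. Ldhb, the isoform that favors lactate use, had 63 and 92 UMIs in PyMT tip and capillary cells, a log2 ratio of -0.58 (-1.07 to -0.10), and 36 and 13 in KPC (0.22, -0.73 to 1.26). Ldhb was the 1 tested enzyme below 0 in PyMT, as Pfkm was in KPC.

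Because each UMI marks 1 transcript counted at its 3′ end, isoforms can be set side by side as shares of UMIs. Tip and capillary cells held almost only Hk1: it took 99.5% of Hk1 and Hk2 UMIs in PyMT tip and 99.4% in capillary cells, and 99.45% and 98.9% in KPC. Cells of the tumor gate differed, with Hk2, the inducible hexokinase of cancers, at 46.1% (38.7 to 53.7) in PyMT and 68.6% (65.9 to 71.3) in KPC. Ldha took at least 99.2% of Ldha and Ldhb UMIs in tip and capillary cells of both libraries. Pfkp took 52.6% of phosphofructokinase UMIs in tip and 50.6% in capillary cells of PyMT and 52.6% and 52.1% in KPC, and 82.0% and 68.5% in artery cells, from 61 and 54 UMIs. For Pfkp, artery cells thus lay farther from tip cells than capillary cells did, although the KPC intervals of artery (54.45 to 80.48) and tip cells (50.02 to 55.23) overlapped. For Hk2, cells of the tumor gate lay farther from tip cells than capillary cells did. Hk1 took 100% and 94.4% in artery cells of PyMT and KPC, from 26 and 18 UMIs of both hexokinases. Ldha took 99.0% and 99.9% in cells of the tumor gate.

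Of the 3 regulators of flux, Pdk1, a pyruvate dehydrogenase kinase that limits the entry of pyruvate into the TCA cycle, had the most UMIs (chr2:71873224-71903858). It stood at 28.8 against 27.8 CPM in PyMT, a log2 ratio of 0.05 (-0.16 to 0.27), and at 18.3 against 12.6 CPM in KPC (0.54, 0.05 to 1.05). Pfkfb3, which makes the activator of phosphofructokinase, had 147 UMIs in tip and 97 in capillary cells of PyMT, at 11.3 against 7.63 CPM (0.57, 0.19 to 0.95). In KPC it had 85 and 43 UMIs, at 10.02 against 12.02 CPM (-0.26, -0.81 to 0.30), so its ratio had opposite signs. The PyMT ratio itself turned to -0.39 where cells were thinned to 2000 UMIs before classes were set, and the KPC ratio to 0.05 without the third of cells highest in immediate early and heat shock UMIs, so no direction holds for it. Pfkfb4 had 4 and 9 UMIs in PyMT and 8 and 7 in KPC.

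Both HIF-α subunits took different courses. Hif1a (chr12:73901375-73947530), which had the most UMIs of its group, stood at 204.5 CPM in tip and 209 in capillary cells of PyMT, a log2 ratio of -0.03 (-0.11 to 0.05). In KPC it stood at 212 against 157 CPM (0.43, 0.29 to 0.57), and among cells of 3000 to 6000 UMIs that ratio was 0.05. Epas1 (chr17:86753700-86833410), the subunit best known from endothelium, was lower in tip cells in both libraries, at 114 against 154 CPM in PyMT (-0.44, -0.53 to -0.34) and 134 against 324 in KPC (-1.28, -1.40 to -1.16). The KPC ratio of Epas1 was -0.80 among cells of 3000 to 6000 UMIs and -0.84 without the third of cells highest in immediate early and heat shock UMIs, under the 2-fold line in both. Hif1a thus took 64.3% (62.8 to 65.7) of the UMIs of both subunits in PyMT tip and 57.6% (56.1 to 59.0) in capillary cells, and 61.3% (59.5 to 63.1) and 32.7% (30.5 to 35.0) in KPC. The subunit balance of tip cells was similar in both tumor models and that of capillary cells was not.

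The prolyl hydroxylases differed from each other. Egln1 (PHD2), the main oxygen sensor of most cells, had log2 ratios of 0.15 (-0.14 to 0.43) in PyMT and -0.01 (-0.43 to 0.43) in KPC. Egln3 (PHD3, chr12:54178981-54203860), a HIF target that feeds back on the pathway, had 229 UMIs in tip and 148 in capillary cells of PyMT, at 17.6 against 11.65 CPM (0.60, 0.29 to 0.90). In KPC it had 82 UMIs in tip and 2 in capillary cells, at 9.67 against 0.559 CPM, a log2 ratio of 4.11 with a wide interval (2.21 to 7.18). Egln3 was the widest ratio of any member in KPC and rests on 2 UMIs in its denominator. Of Egln1 and Egln3 UMIs, Egln3 took 50.8% and 43.0% in PyMT tip and capillary cells and 34.2% and 2.90% in KPC.

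Among the 13 other hypoxia response genes, 8 were higher in tip cells in PyMT and 6 in KPC, with median log2 ratios of 0.26 and -0.07, so the group did not share a direction. Ankrd37, an ankyrin repeat protein known as a HIF target (chr8:45996902-46005707), was the member farthest above 0 with ample counts in both libraries. It stood at 80.7 against 40.85 CPM in PyMT, from 1050 and 519 UMIs (log2 ratio 0.98, 0.83 to 1.14), and at 91.8 against 18.7 CPM in KPC, from 778 and 67 UMIs (2.29, 1.93 to 2.67). Its locus overlaps Ufsp2 and Lrp2bp on the opposite strand. Mif, a secreted cytokine and HIF target with the most UMIs of this group (chr10:75859353-75860240), stood at 718 against 496 CPM in PyMT (0.53, 0.49 to 0.58) and 588 against 237 in KPC (1.31, 1.21 to 1.42). Ankrd37 and Mif were higher in tip cells in both libraries under each of the 19 alternatives tried. Among these, the changed UMI filter and the changed call threshold cannot alter a ratio. Hk1, Pfkl, Pfkp, Aldoa, Pgk1 and Pgam1 also stayed higher throughout in both libraries, and Epas1 and Ddit4 stayed lower.

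Other members of the group split. Bnip3, a mitophagy receptor, had log2 ratios of 0.56 in PyMT and 0.17 in KPC, and P4ha1 and P4ha2, the collagen prolyl hydroxylases, had 0.48 and 0.42 in PyMT and 0.08 and 0.04 in KPC. These 3 were thus wider in PyMT, against the course of the enzymes, but only for P4ha1 did the intervals of both libraries lie apart. Higd1a, a respiratory chain assembly factor, had 0.26 and 0.48. Mxi1, a Myc antagonist, had 0.27 (-0.07 to 0.61) and -0.20 (-0.73 to 0.36), and Hilpda, a lipase inhibitor, 0.08 and -0.16. Kdm3a, a histone demethylase, had -0.13 and -0.51, and Plin2, a lipid droplet coat protein, -0.10 and -0.59. Ndrg1 was at 52.6 against 62.3 CPM in PyMT (-0.24) and 159 against 167 in KPC (-0.07), small ratios that hide a split by gate gene given with the gate genes. Apart from Ankrd37, Mif and Higd1a, the KPC log2 ratios of the group ranged from -1.32 to 0.17.

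Ddit4 (REDD1), a stress-induced inhibitor of mTORC1 (chr10:59949669-59951834), was lower in tip cells in both libraries. It stood at 70.4 against 116 CPM in PyMT (-0.73, -0.85 to -0.61) and 50.1 against 92.0 in KPC (-0.88, -1.09 to -0.66). Without the third of cells highest in immediate early and heat shock UMIs these ratios were -0.72 and -0.84. Ndufa4l2, a subunit variant of the respiratory chain known as a HIF target in pericytes and kidney cancer, was the 1 member at least 2-fold lower in tip cells in both libraries (chr10:127514967-127517154). It had 11 UMIs in tip and 22 in capillary cells of PyMT (log2 ratio -1.03, -2.23 to 0.07) and 37 and 39 in KPC, at 4.36 against 10.9 CPM (-1.32, -2.01 to -0.63). Its level in cells of the pericyte gate was 454 CPM in PyMT, from 27 cells, and 906 in KPC. The 5 pericyte markers summed to 63.8 in tip and 65.2 CPM in capillary cells of PyMT, with Cspg4 at 0 in both, and to 67.2 and 113 CPM in KPC, and their part in the Ndufa4l2 ratio was not tested. The KPC ratio changed sign to 0.64 where capillary cells needed 4 UMIs of their gate genes and to 0.60 without the third of cells highest in immediate early and heat shock UMIs.

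Values within the tip class differed with the gate gene a cell carried. Of the PyMT tip cells, 645 had Apln and no Angpt2, 125 had Angpt2 and no Apln, and 1221 had both, and of the KPC tip cells 335, 78 and 889. Median depth ran from 4347 UMIs in PyMT cells with Angpt2 alone to 6158 in cells with both, and from 4070.5 to 5677 in KPC. Against the same capillary cells, the summed enzymes had log2 ratios of 0.19 with Apln alone, -0.05 with Angpt2 alone and 0.30 with both in PyMT, and 0.56, 0.34 and 0.76 in KPC. In PyMT cells with Angpt2 alone, 7 of 14 enzymes were higher and the median was -0.02, so the enzyme difference was not seen there. In KPC cells with Angpt2 alone, 11 of 13 enzymes were higher, with a median of 0.21.

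Ankrd37 had log2 ratios of 0.63 with Apln alone, 0.34 with Angpt2 alone and 1.16 with both in PyMT, and 1.24, 1.49 and 2.56 in KPC. Mif had 0.40, 0.38 and 0.60 in PyMT and 1.18, 0.96 and 1.375 in KPC. Both were highest where both gate genes were present. Egln3 in PyMT had -0.28 with Apln alone, 0.80 with Angpt2 alone and 0.86 with both, and in KPC 6, 12 and 64 UMIs. The Egln3 ratio in PyMT thus had the opposite sign in cells with Apln alone. Epas1 was below 0 in all 6 sets, from -0.10 in PyMT cells with Angpt2 alone to -1.45 in KPC cells with Angpt2 alone. Ddit4 was lowest in cells with both, at -0.87 in PyMT and -1.11 in KPC. Ndrg1 split by gate gene in both libraries, at -0.94 (-1.22 to -0.67) with Apln alone, 1.35 (1.04 to 1.65) with Angpt2 alone and -0.21 with both in PyMT, and at -0.90 (-1.15 to -0.66), 0.86 (0.56 to 1.15) and 0.06 in KPC. Cells with Apln alone thus lay below capillary cells in Ndrg1 and cells with Angpt2 alone above them.

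A gate draws a line through a continuous range, so levels were also followed over the summed Apln and Angpt2 UMIs of tip, capillary and other cells, each thinned to 2000 UMIs to set depth equal. From 0 through 1, 2, 3 to 4 and 5 or more UMIs, the summed enzymes went from 5408 to 6009, 6481, 6706 and 7667 CPM in PyMT and from 4306 to 4872, 5543, 6177 and 7232 in KPC. Of the 34 members with at least 20 UMIs over these bins in PyMT, 12 were higher at every step, where 2.02% of all genes were, and of the 33 in KPC 9 were, where 2.27% were. Ddit4 was the 1 lower at every step in both, beside 2.67% and 3.66% of all genes. Aldoa, Gapdh, Pgk1, Eno1, Pkm, Ankrd37 and Mif were higher at every step in both libraries. Some single steps were within counting error, as for Gapdh in PyMT, at 1665 CPM with 2 UMIs and 1670 with 3 to 4. The shares of all genes were not matched to the members for level. Ankrd37 went from 46.6 to 173 CPM in PyMT and from 33.1 to 165 in KPC, and Ddit4 from 119.8 to 43.9 and from 115 to 23.6. Epas1 went from 134 to 105 in PyMT and from 266 to 123 in KPC, but not lower at each step. The top bin held 228 cells in PyMT and 297 in KPC.

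**Figure D2:**
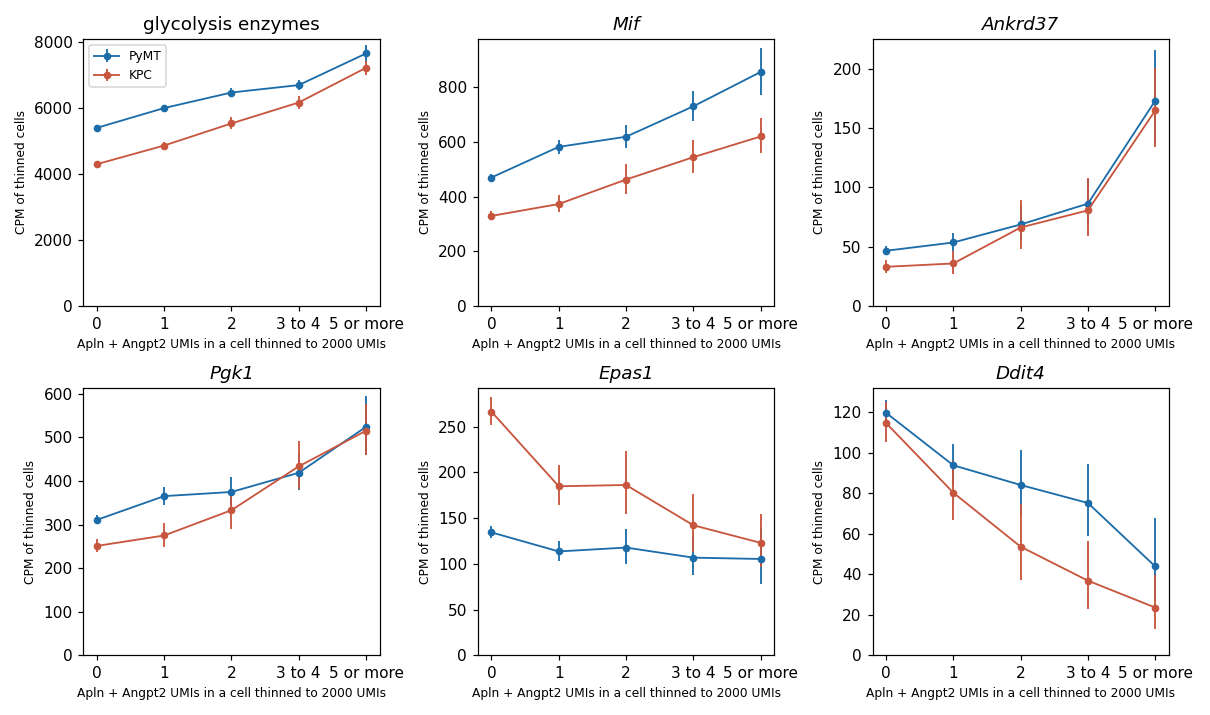
CPM of the summed glycolysis enzymes and of single members over bins of Apln and Angpt2 UMIs (0, 1, 2, 3 to 4, 5 or more) in tip, capillary and other cells thinned to 2000 UMIs, for PyMT and KPC, with exact 95% counting intervals. The enzymes, Ankrd37, Mif and Pgk1 are higher in each further bin in both libraries, and Ddit4 is lower in each, with some single steps within counting error.

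Cell by cell, the difference in enzymes was a shift of overlapping distributions. Among 2000 UMIs, the median PyMT tip cell had 13 enzyme UMIs (quartiles 10 and 17) and the median capillary cell 11 (8 and 14). In KPC the medians were 11 (8 and 15) and 7 (5 and 10). The share of tip cells above the capillary median was 61.7% in PyMT and 76.8% in KPC. Of the capillary cells themselves, 42.9% and 48.9% lay above it, as many whole-number counts are tied. Thinning left out 230 PyMT and 700 KPC capillary cells with under 2000 UMIs, and 50 and 65 tip cells, so the KPC capillary values rest on 597 cells.

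**Figure D3:**
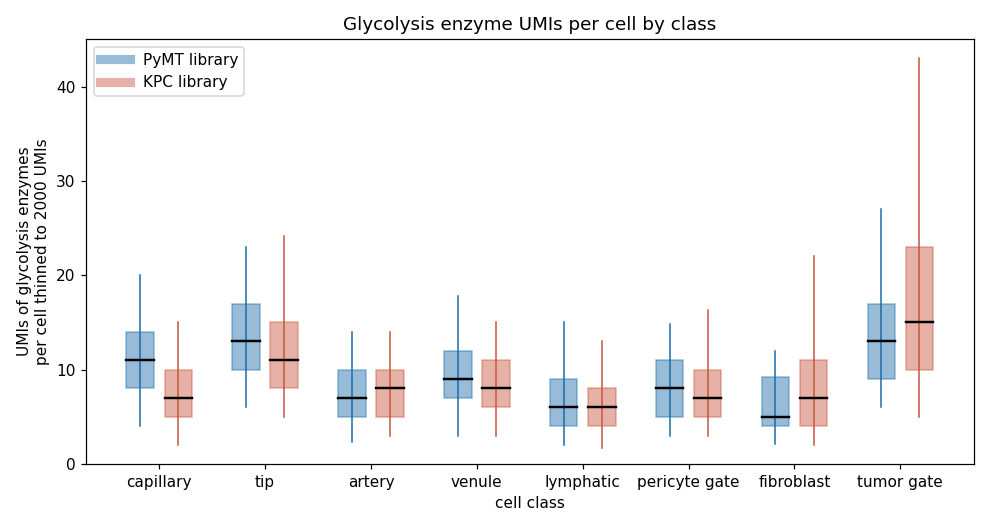
UMIs of the glycolysis enzymes among 2000 UMIs of each thinned cell by class, for PyMT and KPC, as a median line, a box from the first to the third quartile and a line from the 5th to the 95th percentile. Tip cells have the highest median of the endothelial classes in both libraries, with overlapping boxes, and cells of the tumor gate reach the same level in PyMT and a higher one in KPC.

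At equal depth, an Ankrd37 UMI was seen in 12.98% (11.5 to 14.6) of PyMT tip and 7.48% (6.45 to 8.61) of capillary cells, and in 13.99% (12.1 to 16.04) and 4.52% (3.001 to 6.51) in KPC. Unthinned these shares were 29.9% and 15.1%, and 28.0% and 4.47%. In cells of the pericyte gate, which also hold endothelial transcripts, the thinned share was 0 of 25 cells in PyMT, which allows up to 12% by 3 cells, and 5.32% in KPC, above the 4.52% of KPC capillary cells. None of the classes is known to lack Ankrd37, so the share that free RNA gives was not measured for it. A Mif UMI was seen in 70.6% of tip and 57.9% of capillary cells in PyMT and 59.7% and 31.2% in KPC. An Egln3 UMI was seen in 4.48% and 2.58% of thinned PyMT tip and capillary cells (9.90% and 4.93% unthinned), and in 1.86% (1.18 to 2.78) of KPC tip cells and 0 of 597 KPC capillary cells, where 3 cells would make 0.503%. Epas1 ran the other way, in 19.2% and 24.25% of PyMT and 23.5% and 42.2% of KPC cells, and so did Ddit4, in 11.7% and 19.65% and in 7.52% and 18.3%. An Ndufa4l2 UMI was seen in 0.155% and 0.253% of thinned PyMT tip and capillary cells and in 0.808% and 1.51% in KPC. There cells of the tumor gate had 0.761% (0.280 to 1.65) and cells of the pericyte gate 88.3%. The KPC tip and capillary shares of Ndufa4l2 (0.388 to 1.48 and 0.692 to 2.84) overlapped that of the tumor gate. Cells of the tumor gate are not known to lack Ndufa4l2, so the share that free RNA in the droplets gives was not measured for it.

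Over the 5 endothelial classes, members with at least 20 UMIs were most often highest in tip cells, 17 of 33 in PyMT, where 15.7% of all genes were highest in tip cells, and 16 of 35 in KPC, where 13.8% were. Lymphatic cells were highest for 6 and 7 (30.2% and 27.6% of all genes), artery cells for 8 and 5 (27.8% and 27.9%), venule cells for 2 and 2 (19.3% and 12.1%) and capillary cells for 0 and 5 (6.91% and 18.7%). Some of these first places were within counting error of the next class, as for Hk1 and Pdk1 in both libraries, and Gpi1 in PyMT. The shares of all genes were not matched to the members for level. The classes also differed in summed UMIs, in PyMT from 487653 in artery to 13011965 in tip cells. The summed enzymes stood at 6748 CPM in tip, 5657 in capillary, 4852 in venule, 4005 in artery and 3626.5 in lymphatic cells of PyMT. In KPC they stood at 6309 in tip, 4457 in venule, 3892 in artery, 3890 in capillary and 3439 in lymphatic cells. Cells of the tumor gate had 6779 in PyMT and 9025 in KPC. Tip cells were thus the endothelial class with the highest enzyme share in both, and capillary cells came second in PyMT but beside artery cells in KPC.

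**Figure D4:**
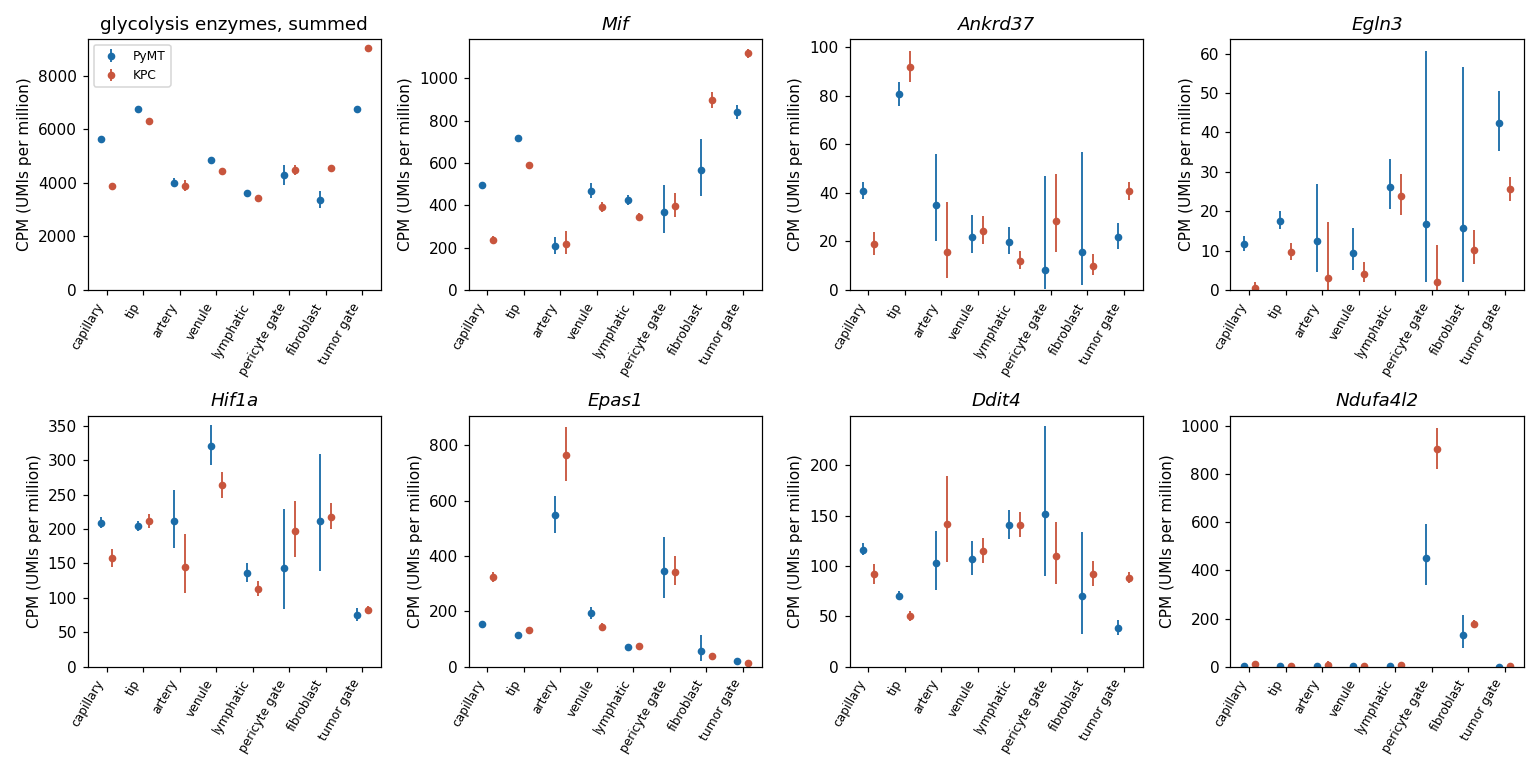
CPM of the summed glycolysis enzymes and of 7 members by class, without the class of other cells, for PyMT and KPC, with exact 95% counting intervals. Tip cells are the highest endothelial class for the enzymes, Mif and Ankrd37, artery cells for Epas1, venule cells for Hif1a and lymphatic cells for Egln3, and Ndufa4l2 is highest in cells of the pericyte gate.

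The HIF subunits had different class orders. Epas1 was highest in artery cells, at 548 CPM in PyMT and 764 in KPC, followed in PyMT by venule (193), capillary (154), tip (114) and lymphatic cells (71.6), each apart from its neighbour beyond counting error. In KPC capillary cells (324) came second, venule (143) and tip cells (134) did not differ beyond counting error, and lymphatic cells had 74.4. Hif1a was highest in venule cells, at 321 CPM in PyMT and 264 in KPC, with artery (211), capillary (209) and tip cells (204.5) overlapping in PyMT. In KPC tip cells (212) followed venule cells, and capillary (157), artery (145) and lymphatic cells (113) formed overlapping neighbours. Hif1a took 27.8% of the UMIs of both subunits in PyMT artery cells and 15.99% in KPC artery cells.

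Some members were highest in lymphatic cells. Ndrg1, a stress-induced protein of the hypoxia response, stood at 191.5 CPM in lymphatic cells of PyMT and 314 in KPC, followed by venule cells with 136 and 177. Egln3 stood at 26.2 and 23.8 CPM in lymphatic cells, above tip cells in both libraries beyond counting error. The part of lymphatic transcripts in the tip values of Ndrg1 and Egln3 was not tested. Pfkfb3 stood at 22.5 and 21.8 CPM, although in PyMT venule (11.999) and tip cells (11.3) were within counting error of the neighbour above them, and in KPC artery cells were within counting error of lymphatic cells. Lymphatic cells had the lowest summed enzymes of the 5 classes in both libraries.

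Among the endothelial classes artery cells had the fewest cells, 126 in PyMT and 105 in KPC, and their values carry wide intervals. P4ha2 was highest there among endothelial classes, at 43.1 CPM in PyMT, within counting error of tip cells, and 111 in KPC. It took 53.85% (37.2 to 69.9) and 78.3% (63.6 to 89.05) of P4ha1 and P4ha2 UMIs, against 28.3% and 38.4% in tip cells. Mif was lowest there, at 207 and 219.5 CPM, although in KPC capillary cells were within counting error of artery cells. Tip cells exceeded artery cells in Mif by log2 ratios of 1.79 (1.51 to 2.09) and 1.42 (1.08 to 1.78). The tip level of Ankrd37 exceeded that of artery, venule and lymphatic cells by log2 ratios of 1.21, 1.88 and 2.02 in PyMT and 2.57, 1.92 and 2.95 in KPC.

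Against capillary cells, which serve as the shared comparison here as for tip cells, 1 member was at least 2-fold higher in PyMT venule cells, Ndrg1 with a log2 ratio of 1.13 (5.38% of all genes were so), and 0 were lower (4.38%). In KPC venule cells Ldhb was higher at 1.63 (3.71% of all genes), and Epas1 at -1.18 and Ndufa4l2 at -2.19 were lower (6.17%). In PyMT artery cells Epas1 at 1.83 and P4ha2 at 1.26 were higher (9.12% of all genes), and Pfkl at -1.71 and Mif at -1.26 were lower (13.5%). In KPC artery cells Epas1 at 1.24 and P4ha2 at 1.36 were higher (6.31%), and P4ha1 at -1.13, Kdm3a at -1.26 from 2 artery UMIs, and Hilpda at -1.28 were lower (13.6%). At 1.5-fold, 5 members were higher and 3 lower in PyMT venule cells (13% and 9.36% of all genes), 3 and 5 in KPC venule cells (8.84% and 14.7%), 5 and 9 in PyMT artery cells (19.1% and 21.7%) and 4 and 4 in KPC artery cells (15% and 23.4%). Epas1 and P4ha2 were thus at least 2-fold higher in artery than in capillary cells in both libraries, but the call on P4ha2 was lost in both with a filter of 1000 genes and 5% mitochondrial UMIs, and in PyMT also among cells of 3000 to 6000 UMIs and with cells thinned to 2000 UMIs.

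Outside the endothelium, some members stood higher in cells of the tumor gate or fibroblast cells than in tip cells. Hk2 stood at 28.2 CPM in PyMT and 74.0 in KPC in cells of the tumor gate, and at 62.8 and 92.7 in fibroblast cells, against 0.307 and 0.354 in tip cells. In PyMT the fibroblast and pericyte gates held only 28 and 27 cells, and the fibroblast Hk2 level rests on 8 UMIs. Hilpda stood at 498 and Pgk1 at 1211 CPM in KPC cells of the tumor gate. Ndufa4l2 stood at 133 and 176.5 CPM in fibroblast cells. Hk2 was thus near 0 in tip and capillary cells and well detected in other cells of the same libraries.

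Enzyme levels of tip cells were close in both tumor models, and those of capillary cells were lower in KPC. Between KPC and PyMT tip cells, 2 of 33 members were at least 2-fold higher in KPC (5.05% of all genes), Ndrg1 with a log2 ratio of 1.596 (1.46 to 1.73) and Ndufa4l2 with 2.37 (1.37 to 3.49), and 0 were lower (2.44%). At 1.5-fold, 4 were higher (11.9%) and 2 lower (6.11%). The median enzyme ratio was -0.07, with 4 of 14 above 0, beside a median of 0.08 and 60.1% above 0 over all genes. Ankrd37 had 0.19 (0.05 to 0.32) and Hif1a 0.05 (-0.04 to 0.14).

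Between capillary cells the median of all genes was itself shifted by 0.14 toward KPC. There 5 members were at least 2-fold higher in KPC (11.1% of all genes), Epas1 (1.08), Ndrg1 (1.42), P4ha2 (1.27), Kdm3a (1.05) and Ndufa4l2 (2.65), and 4 were lower (4.83%), Pdk1 (-1.14), Egln3 (-4.38, from 2 and 148 UMIs), Ankrd37 (-1.12) and Mif (-1.07). At 1.5-fold, 8 were higher (23.3%) and 10 lower (10.9%). Relative to the shifted median, 3 were higher (8.85% of all genes) and 6 lower (6.35%) at 2-fold. The median enzyme ratio was -0.46, with 2 of 14 above 0, where 59.7% of all genes were above 0. Ndrg1 and Ndufa4l2 were thus at least 2-fold higher in KPC in both classes, on either scale for capillary cells. For Ndufa4l2 both ratios rest on the few UMIs given with its tip over capillary ratio, and the part of free RNA was not tested. KPC capillary cells also differed from PyMT ones in depth, with 1879 against 4254 UMIs per cell, and in immediate early and heat shock transcripts, which summed to 9744.5 against 2363.5 CPM. The part of these transcripts in the difference between libraries was not tested.

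**Figure D5:**
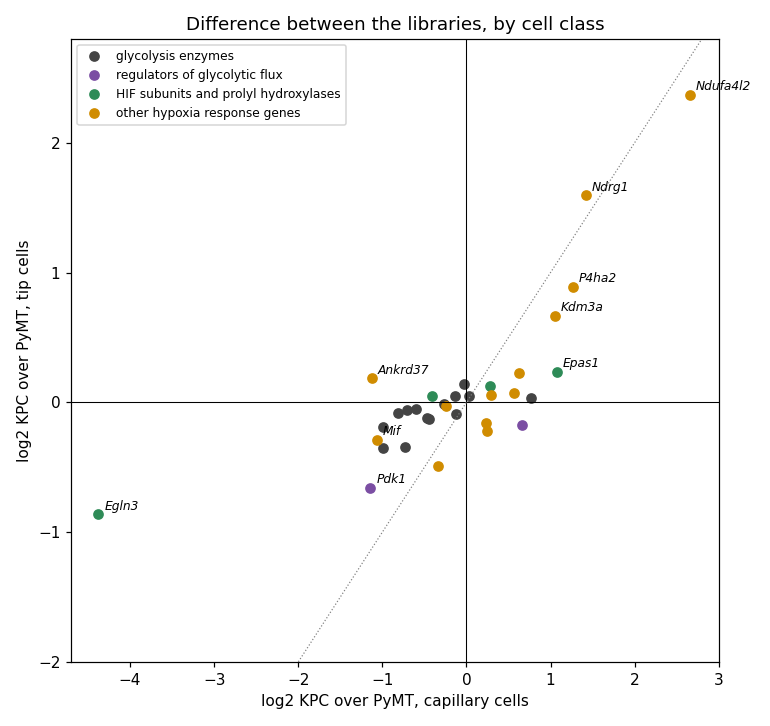
Log2 ratio of KPC over PyMT in capillary cells (horizontal) against tip cells (vertical) for members tested in both classes, colored by role, with the line of equal ratios dotted. The enzymes lie near 0 in tip cells and mostly left of 0 in capillary cells, Ndrg1 and Ndufa4l2 lie above 1 on both axes, and Egln3 lies farthest left.

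Across the 33 members tested in both libraries, the tip over capillary ratios had the same sign for 26, above 0 for 20 and below for 6, and the KPC ratio was the larger for 20. Over all genes tested in both libraries, 67.9% had the same sign, 30.5% above 0 and 37.4% below, and the KPC ratio was the larger for 45.2%. Pearson's r across the 33 members was 0.63, a description over genes that share cells and depth within each library. Egln3, with its wide KPC interval, is among these members.

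Genes around the members were described from fixed lists. Of 21 further glycolysis genes, 13 were tested in PyMT and 8 were higher in tip cells, with 0 at least 2-fold apart, and 11 were tested in KPC, with 6 higher and 1 at least 2-fold apart on each side. Of 22 further HIF targets, 19 were tested in PyMT with 15 higher and a median of 0.29, and 17 in KPC with 7 higher and a median of -0.20. Adm, the vasodilator adrenomedullin and a HIF target, was the 1 listed gene at least 2-fold apart the same way in both, at 24.7 against 7.56 CPM in PyMT (log2 ratio 1.71, 1.37 to 2.05) and 45.05 against 4.47 in KPC (3.33, 2.61 to 4.15). Chosen after their values were seen, the lactate exporter Slc16a3 had 0.95 and 1.196, and the glucose transporter Slc2a1 had 0.24 and 0.68. Like the members, further HIF targets lay on both sides of 0 in KPC.

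Oxidative genes had smaller summed ratios than the 16 enzymes, and in KPC about that of the further glycolysis genes, at 0.17 (0.07 to 0.28). The 30 genes of the TCA cycle and oxidative phosphorylation summed to 6934 against 6847 CPM in PyMT (log2 ratio 0.02) and 7465 against 6759 in KPC (0.14), and 0 of 29 tested were 2-fold apart in either library. Of 8 oxygen sensing genes found in the files, 6 were tested, with 1 higher in PyMT and 3 in KPC and 0 at least 2-fold apart.

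Cell cycle and stress states also moved with the tip class. All 10 cycling genes were higher in tip cells in both libraries, with medians of 0.26 and 0.56. Summed, they had log2 ratios of 0.29 in PyMT and 0.51 in KPC. At least 2 UMIs of them were seen in 68.0% of PyMT tip and 54.2% of capillary cells, against 54.1% and 19.9% in KPC. Deeper cells pass a fixed cut of 2 UMIs more easily and tip cells were deeper, so these unthinned shares also carry depth. Without cycling cells, set by the same cut, the enzyme median was 0.32 in PyMT and 0.67 in KPC, beside 0.25 and 0.50 with them. The part of cycling in the enzyme ratios was not tested. Immediate early and heat shock genes were lower in tip cells, with medians of -0.27 and -1.47, and without the third of cells highest in them the enzyme medians were 0.24 and 0.56. Among cells of 3000 to 6000 UMIs the enzyme medians were 0.26 and 0.57, and without cells holding a Krt8 or Krt18 UMI 0.27 and 0.53.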

How the data were processed

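The study measured single-cell transcripts of sorted tumor endothelial cells in 1 library per tumor model. The authors aligned reads to mm10 with Cell Ranger (3.0 in the methods, 3.0.2 in the matrix header) and deposited UMI counts per gene and barcode as whole numbers, without normalization. The kit is given as v2 in the labels and as v3 in another passage of the methods.

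Everything else was computed from these counts (Python 3.11.15, NumPy 2.4.6, SciPy 1.17.1, pandas 2.3.3, scanpy 1.11.5). The filter kept barcodes with 500 or more genes and a mitochondrial share below 10%. Rows with the same symbol were summed. The gates were applied in the order tumor (Krt8 and Krt18, at least 5 UMIs), fibroblast (Col1a1 and Col1a2, 10), lymphatic (Mmrn1 and Prox1, 3), pericyte (Notch3 and Higd1b, 2), venule (Ackr1 and Selp, 3), artery (Gja5 and Sema3g, 2), tip (Apln and Angpt2, 3) and capillary (Car4 and Cd300lg, 2). Levels are CPM of summed UMIs with exact Poisson intervals, ratios have exact conditional intervals and shares have Clopper-Pearson intervals. Genes tested had at least 20 UMIs over both classes, and a gene was called at 2-fold. Cells were thinned to 2000 UMIs with seed 1. Scrublet, with an expected rate of 0.08, marked 0 cells in either library, so doublets remain, and the highest scores were left out as an alternative.

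On simulated counts with 200 changed genes, 95.6% of intervals held the set ratio for tip over capillary cells in PyMT (11513 genes, median error 0.084) and 96.2% in KPC (10904 genes, 0.117). Such intervals cover counting error only, and the counts set their width.

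The members and lists were chosen with earlier results of these data known. Named by rule were members at least 2-fold apart the same way in both libraries, the member of each role group with the most UMIs, and listed genes at least 2-fold apart the same way in both libraries; the other genes named were chosen after their values were seen. Positions are those of GENCODE M21 on GRCm38. Of the members, 16 share positions with an opposite-strand gene that was also counted and 2 with a same-strand one, and their counts may be shared. Tceb1 and Tceb2 had no row of that symbol. Rows for TdTomato and CreERT2 held 0 UMIs. Alternatives covered the filter on cells, depth, gates, doublets, cycling and stressed cells, scaling and thresholds.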

Additional observations from a re-analysis of the deposited data

How the results depend on the processing

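No paired analysis was possible because each tumor model had 1 library and no result comes from a test. Counts of members at least 2-fold apart were small and moved with the settings; the cause was not tested except where a setting changes the genes or cells counted. For tip over capillary in PyMT, 0 members were higher, and 2 were so with cells thinned to 2000 UMIs, 3 at 1.5-fold, and 1 (Ankrd37 or Ndrg1) with a tip threshold of 5, a capillary threshold of 4, Angpt2 alone, cells past both gates out, the highest doublet scores out, cycling cells out or the mean of per-cell CPM. The 1 lower was 0 with a filter of 200 genes and 20% mitochondrial UMIs, thinned, with a capillary threshold of 4, Apln alone, both-gate cells out, cycling cells out, 3000 to 6000 UMIs or the cells highest in immediate early and heat shock share out, and 2 with a tip threshold of 5, Angpt2 alone, at least 5 UMIs or 1.5-fold. In KPC the 4 higher were 8 thinned, 7 without cycling cells or by per-cell CPM, 9 at 1.5-fold, 2 with Apln alone and 1 with Angpt2 alone. The 2 lower were 1 with a capillary threshold of 4, Apln alone, without cycling cells or by per-cell CPM, 5 with Angpt2 alone, 4 at 1.5-fold and 0 with the cells highest in immediate early and heat shock share out. The share of all genes moved with the settings too. Thinned, 1.90% were higher and 3.06% lower in PyMT, with 32 members tested, and 5.50% and 9.22% in KPC, with 28. With Angpt2 alone these shares were 4.54% and 8.56% in PyMT and 3.92% and 15.47% in KPC. In KPC they were 4.35% and 8.87% without cycling cells and 7.47% and 9.996% by per-cell CPM.

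For venule over capillary in PyMT, the 1 higher was 0 with a filter of 1000 genes and 5% mitochondrial UMIs, 5 at 1.5-fold and 2 at 3000 to 6000 UMIs, and the 0 lower were 3 thinned, 1 with at least 5 UMIs, 3 at 1.5-fold and 1 at 3000 to 6000 UMIs. In KPC the 1 higher was 0 thinned, 3 with at least 5 UMIs, 3 at 1.5-fold and 0 at 3000 to 6000 UMIs, and the 2 lower were 4 thinned, 5 at 1.5-fold and 4 at 3000 to 6000 UMIs. Of all genes, 7.78% were higher and 11.75% lower thinned in PyMT venule cells, and 4.48% and 8.44% in KPC. At 3000 to 6000 UMIs these shares were 6.11% and 7.20% in PyMT and 3.68% and 5.61% in KPC. With at least 5 UMIs, 7.855% were lower in PyMT venule cells and 6.09% higher in KPC ones. With 1000 genes and 5%, 4.89% were higher in PyMT venule cells. For artery over capillary in PyMT, the 2 higher were 1 with 1000 genes and 5%, 4 thinned, 5 at 1.5-fold and 1 at 3000 to 6000 UMIs, and the 2 lower were 4, 7, 9 and 6. Of all genes, 9.43%, 11.63%, 19.08% and 10.25% were higher under these settings, and 15.7%, 21.08%, 21.75% and 15.7% were lower. The members tested were 32 thinned. In KPC the 2 higher were 1 with 1000 genes and 5% (6.35% of all genes) and 4 at 1.5-fold (14.96%). For KPC over PyMT in tip cells, the 2 higher were 4 at 1.5-fold, and the 0 lower were 1 thinned and 2 at 1.5-fold. In capillary cells the 5 higher were 3 with 1000 genes and 5%, centred on the median of all genes or at 3000 to 6000 UMIs and 8 at 1.5-fold, and the 4 lower were 7 thinned and 10 at 1.5-fold. Of all genes, 9.88% were higher with 1000 genes and 5%, 8.85% centred and 10.3% at 3000 to 6000 UMIs. Thinned, 7.82% of all genes were lower in capillary cells and 3.24% in tip cells.

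The KPC ratio of Ndufa4l2, tip over capillary, changed sign from -1.32 to 0.639 with a capillary threshold of 4 and to 0.604 with the cells highest in immediate early and heat shock share out. The ratio of Egln3 in PyMT ran from -0.28 with Apln alone to 0.85 thinned. The range of UMIs and the leaving out of cells high in immediate early genes were chosen after the data were seen. Of 148 counts of members under alternatives, 81 stayed within 1.5 times their value.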
